A study of Mus musculus with 6 samples.

Results

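Foxp3 and 8 further genes that mark regulatory T cells were followed in CD4 T cells sorted from mouse lung. The 9 genes were taken from a list of names (Foxp3, Ikzf2, Ikzf4, Ctla4, Lrrc32, Nrp1, Gpr83, Capg and Itgb8) that was chosen with earlier results of these data known. All 9 were among the 22180 genes measured. Each had exactly 1 probe set (the array's group of probes for a transcript) that named it alone. The HDM group was 3 samples from wild-type mice sensitised and challenged with house dust mite (HDM), an allergen that provokes allergic airway inflammation. The PBS group was 3 samples from wild-type mice given the saline vehicle PBS in its place. All 6 were lung cells sorted as CD45+ CD4+ and as lacking CD11b and the macrophage antigen encoded by Adgre1, so regulatory and conventional CD4 T cells were collected together. The sources used here give no strain, age, dose or days of treatment and do not say how many mice made a sample. The titles call the samples biological replicates, so a p-value sets a difference against the spread among 3 such samples per group.

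Regulatory T cells are CD4 T cells that restrain immune responses, and in mice they depend on the transcription factor FOXP3. They suppress through several routes: they take up interleukin 2 with a high-affinity receptor, strip costimulatory ligands from antigen-presenting cells through CTLA-4, hold and activate latent TGF-beta, and secrete interleukin 10. In the airways they limit allergic inflammation, and cells in tissue carry an effector programme that resting cells of lymphoid organs lack.

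Signals are log2 values normalised between arrays by RMA, and the median gene of an array lay between 6.85 and 6.93. The sorted population carried its defining markers at similar signal in both groups. Cd4 lay between 12.47 and 12.73 over the 6 arrays and Cd3e, a chain of the T cell receptor complex, between 12.72 and 13.09, and neither passed the test (adjusted p = 0.294 and 0.662). Itgam, which encodes CD11b, lay between 7.19 and 7.97 and Adgre1 between 6.91 and 7.95, also without a call (adjusted p = 0.984 and 0.469). Deviations of arrays from their group mean were shared by the arrays numbered 1 and by those numbered 3 (correlations of 0.43 and 0.53). The pair numbered 2 shared less (0.17), below PBS replicate 1 with HDM replicate 2 (0.25). A fit with the replicate number as a block is quoted for the members and for each list whose counts it moved. HDM replicate 3 stood apart from the other HDM arrays for several genes below, and values without it are given there.

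Of the 9 genes, 5 rose in HDM and 0 fell in the limma fit, where a call needs an adjusted p under 0.05. Over all genes tested, 2.39% were called higher and 1.56% lower by the same rule. Because the 9 were chosen with earlier results of these data known, setting them beside all genes is a description and no test. At an unadjusted p below 0.05, 7 of the 9 were higher and 0 lower, against 8.67% and 9.17% of all genes. The raised genes were Foxp3, Ikzf2, Nrp1, Capg and Itgb8, and their differences ran from 0.76 (Ikzf2) to 1.66 (Itgb8) on the log2 scale. The 3 HDM values lay above the 3 PBS values for 7 of the 9, against 10.8% of all genes, and below them for 0 of the 9, against 11.8% of all genes. The 7 were the 5 called genes with Ikzf4 and Ctla4, and these 7 were called higher when the replicate number was a block, with 0 called lower. That fit called 5.95% of all genes higher and 6.01% lower. Lrrc32 and Gpr83 were the members whose groups overlapped. The median difference of the 9 was 0.83, beside −0.01 over all genes. With 1 array left out, between 2 and 5 of the 9 were called higher: 2 without PBS replicate 1, and 3 without HDM replicate 1 or without HDM replicate 2. In these 3 settings 192, 202 and 181 of the 22180 genes were called higher, beside 531 with all arrays. At an unadjusted p below 0.05, 7 of the 9 were higher with any 1 array left out. By that rule 1 member fell when either PBS replicate 3 or HDM replicate 3 was absent, and 0 fell in the other settings. With PBS replicate 2 absent, 6.82% of all genes were higher and 5.96% lower by that rule. The shares of all genes in the other settings were not counted.

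**Figure D1:**
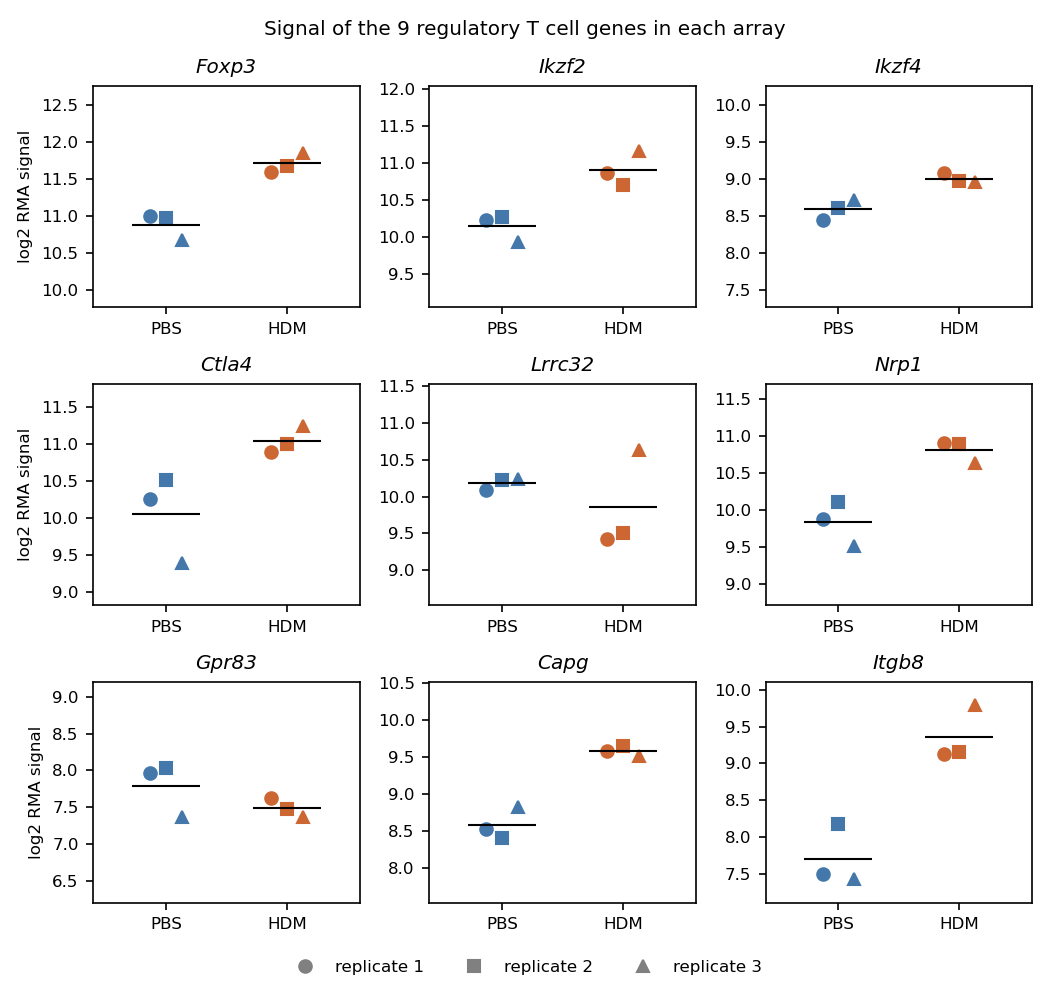
Log2 RMA signal of each of the 9 genes in each array, PBS in blue and HDM in orange, with the mean of 3 as a line and the replicate number as the marker shape; every panel spans the same height on the log2 axis. The groups do not overlap for 7 genes, while the Lrrc32 signal of 10.63 in HDM replicate 3 lies above all PBS values.

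Foxp3, the transcription factor that defines the lineage, gave signals of 11.00, 10.97 and 10.67 in PBS replicates 1, 2 and 3 and of 11.60, 11.68 and 11.85 in HDM replicates 1, 2 and 3. Every HDM array was above every PBS array, with a gap between 11.00 and 11.60. The mean rose from 10.88 ± 0.184 (SD, n = 3) to 11.71 ± 0.125 (SD, n = 3), which is 1.77-fold (log2 difference 0.83 ± 0.11 SE, adjusted p = 0.00851). The call held when any 1 array was left out (differences of 0.72 to 0.89, adjusted p of up to 0.0463). In a sorted population measured in bulk, more FOXP3-expressing cells and more Foxp3 RNA per cell cannot be told apart, and the same holds for the other members. A further probe set that named Foxp3 together with other genes was not used.

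Foxp3 lies on the X chromosome (chrX:7579676-7595243, RefSeq on GRCm38.p6). Ikzf2 and Ctla4 are on chromosome 1, Capg on 6, Lrrc32 on 7, Nrp1 on 8, Gpr83 on 9, Ikzf4 on 10 and Itgb8 on 12. Promoter windows in RefSeq were found for 6 of the 9 members. One window each of Foxp3, Ctla4 and Itgb8 is shown because these lie wholly outside the annotated gene and belong to the lineage factor, to a surface receptor of regulatory T cells and to the member with the greatest difference. Each is the 250 bases before the transcript start, 5′ to 3′ on the strand of the gene, and capitals mark 3 short motifs searched on both strands. These are TGTTT, the core of forkhead sites, GGAAA, the core of NFAT sites, and TATAAA, the TATA box, and no 2 of the marked sites overlap. The windows are chrX:7579426-7579675 on the plus strand for Foxp3, chr1:60908775-60909024 on the plus strand for Ctla4 and chr12:119238277-119238526 on the minus strand for Itgb8.
Foxp3: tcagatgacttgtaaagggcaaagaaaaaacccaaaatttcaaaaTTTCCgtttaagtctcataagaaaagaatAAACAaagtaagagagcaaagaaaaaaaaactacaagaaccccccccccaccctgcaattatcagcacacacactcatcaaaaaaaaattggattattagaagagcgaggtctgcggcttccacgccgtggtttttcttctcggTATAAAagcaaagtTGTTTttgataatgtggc
Ctla4: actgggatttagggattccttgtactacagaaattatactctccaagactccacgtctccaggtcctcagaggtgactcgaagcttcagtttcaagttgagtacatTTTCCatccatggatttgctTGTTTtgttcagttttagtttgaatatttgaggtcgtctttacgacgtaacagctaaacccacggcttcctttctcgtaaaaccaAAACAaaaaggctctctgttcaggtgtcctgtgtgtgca
Itgb8: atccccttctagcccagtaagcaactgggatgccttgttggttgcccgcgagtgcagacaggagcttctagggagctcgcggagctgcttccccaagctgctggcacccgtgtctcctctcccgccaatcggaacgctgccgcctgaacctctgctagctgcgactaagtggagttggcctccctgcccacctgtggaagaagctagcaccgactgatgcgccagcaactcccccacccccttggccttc
The Foxp3 window shown held TGTTT at 2 places, GGAAA at 1 and TATAAA at 1, the last starting 32 bases before the transcript. Ctla4 had TGTTT at 2 places and GGAAA at 1, and the Itgb8 window had none of the 3 motifs. RefSeq gives a second Foxp3 start with a window inside the annotated gene (chrX:7580233-7580482), whose letters are not shown; it held TGTTT at 1 place, GGAAA at 1 and TATAAA at 0, with a G and C share of 46%. Of 32851 promoter windows of this length, 46.4% held TGTTT, 55.6% GGAAA and 12.4% TATAAA. The share of G and C was 37.6% for the Foxp3 window shown, 42.4% for Ctla4 and 62.4% for Itgb8, beside a median of 52.4% over all windows. A match of letters is a description of the window and no evidence of binding.

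Ikzf2 encodes Helios, a zinc finger factor of the Ikaros family found in most regulatory T cells of thymic origin. Its signals were 10.23, 10.27 and 9.93 in PBS replicates 1, 2 and 3 and 10.86, 10.70 and 11.16 in the HDM replicates, so the groups did not overlap and PBS replicate 3 was the lowest and HDM replicate 3 the highest array, as for Foxp3. Ikzf2 rose 1.70-fold (0.76 ± 0.14, adjusted p = 0.0284), but of the 6 settings that leave out 1 array the call held only in the one without HDM replicate 3 (adjusted p of 0.055 to 0.101 in the others).

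Ikzf4 encodes Eos, a family member that acts as a partner of FOXP3 in gene repression. It gave 8.44, 8.60 and 8.72 in the PBS arrays and 9.08, 8.97 and 8.96 in the HDM arrays. The groups did not overlap, though the gap was narrow, between 8.72 and 8.96. The difference of 0.42 ± 0.10 did not pass (adjusted p = 0.0729), but did with the replicate number as a block (adjusted p = 0.0332). Of the other Ikaros family genes measured, 1 of 3 rose: Ikzf3, which encodes Aiolos, was higher by 0.54 ± 0.09 (adjusted p = 0.0163). Ikzf3 did not pass without PBS replicate 1, PBS replicate 2 or HDM replicate 1, with an adjusted p of at most 0.0818. Ikzf1, Ikaros itself, differed by −0.05, and Ikzf5 by −0.26; both lay outside the rule for named genes and complete the family.

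Ctla4 encodes the receptor that binds CD80 and CD86 in competition with CD28. Its PBS signals were 10.26, 10.52 and 9.39 and its HDM signals 10.89, 11.01 and 11.25. All HDM arrays lay above all PBS arrays, and the low value of PBS replicate 3 gave the PBS group an SD of 0.591, beside 0.183 in HDM. The 1.99-fold difference (0.99 ± 0.26) did not pass (adjusted p = 0.0895). It passed with the replicate block (adjusted p = 0.0375), and without PBS replicate 3, where the difference was 0.66 (adjusted p = 0.0485).

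Among 9 measured genes of the B7 and CD28 families and of CTLA-4 handling, 3 rose, 1 fell and 5 did not pass (median 0.25), and 4 rose and 1 fell with the block. Cd80, a ligand of CTLA-4, rose 2.80-fold (1.49 ± 0.20, adjusted p = 0.00788), Pdcd1lg2, the ligand PD-L2, 1.73-fold (adjusted p = 0.00926) and Icos, a costimulatory receptor of the CD28 family, 1.51-fold (adjusted p = 0.00916). Trat1, an adaptor that aids CTLA-4 transport to the surface, fell by 0.59 (SE 0.08, adjusted p = 0.00722). Cd80 lost the call without PBS replicate 2 (adjusted p = 0.0528), Icos without HDM replicate 2 (0.0525) and Pdcd1lg2 without HDM replicate 1 or 2 (up to 0.0548), and the number that rose was 1 without HDM replicate 2 and 2 without either PBS replicate 2 or HDM replicate 1. Cd80 and Cd86 are also products of antigen-presenting cells.

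Nrp1 encodes neuropilin 1, a coreceptor for semaphorins and VEGF that in mice is abundant on regulatory T cells formed in the thymus. The PBS arrays gave 9.87, 10.11 and 9.51 and the HDM arrays 10.91, 10.90 and 10.64. The HDM values lay close together and above all PBS values. Nrp1 rose 1.98-fold (0.99 ± 0.16, adjusted p = 0.0162), by 1.03, 0.79 and 1.13 between the arrays numbered 1, 2 and 3. It did not pass when PBS replicate 1, HDM replicate 1 or HDM replicate 2 was absent, with adjusted p between 0.0606 and 0.0821.

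Of 9 measured genes, which are a further neuropilin, semaphorins, plexins and the ligand gene Vegfa, 2 rose and 7 did not pass (median 0.11). Both that rose were plexins, the signalling partners of neuropilins: Plxnd1 by 0.93 ± 0.10 (adjusted p = 0.00417) and Plxna1 by 0.82 ± 0.14 (adjusted p = 0.0203). Plxna1 missed the threshold without any 1 of the 4 arrays numbered 1 or 2 (adjusted p up to 0.0973), which left 1 call in each of these settings.

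Itgb8 and Lrrc32 serve the TGF-beta route. Itgb8 encodes the integrin chain that pairs with the alpha v chain to release active TGF-beta from its latent form, and Lrrc32 encodes GARP, the membrane protein that holds latent TGF-beta on regulatory T cells. Itgb8 gave 7.50, 8.18 and 7.43 in PBS and 9.13, 9.15 and 9.79 in HDM, and the lowest HDM array lay 0.95 above the highest PBS array. It had the greatest difference of the 9 members, 3.15-fold (1.66 ± 0.25, adjusted p = 0.0122), and of the 6 arrays only PBS replicate 1, when left out, ended the call (1.55, adjusted p = 0.0552). Within the numbered pairs the difference was 1.63, 0.97 and 2.37.

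Lrrc32 differed by less than its spread. The PBS signals were 10.09, 10.23 and 10.24, and the HDM signals were 9.43, 9.51 and 10.63. HDM replicates 1 and 2 lay below all PBS arrays while HDM replicate 3 lay above them. The difference of −0.33 ± 0.29 did not pass (adjusted p = 0.632), nor did it with the block (adjusted p = 0.372). Without HDM replicate 3 Lrrc32 was called lower (−0.72, adjusted p = 0.00578), as it was without both arrays numbered 3 (−0.69, adjusted p = 0.00236). In these settings 722 and 1326 genes were called lower, beside 345 with all arrays. Lrrc32 is also a gene of endothelial cells, and the 8 measured endothelial markers varied between arrays. Their mean log2 signal was 7.46, 8.45 and 8.59 in the PBS arrays and 6.95, 7.45 and 8.27 in HDM replicates 1, 2 and 3. The lower 2 HDM arrays for Lrrc32 were the lower 2 for this list. PBS replicate 1 and HDM replicate 2 had list means of 7.46 and 7.45, with Lrrc32 at 10.09 and 9.51. The part of endothelial cells in the Lrrc32 values was not tested. Endothelial cells also carry Nrp1. Of the 8 endothelial markers, 7 did not pass and Pecam1 fell by 0.51 (SE 0.08, adjusted p = 0.0169), and with the replicate block 4 of the 8 fell and 0 rose. The endothelial list had a median difference of −0.54, and its mean ranged from 7.46 to 8.59 in PBS and from 6.95 to 8.27 in HDM. Pecam1, which T cells express as well, missed the threshold without any 1 of the 4 arrays numbered 1 or 2 (adjusted p up to 0.0961). The part of endothelial cells in the Nrp1 values was not tested.

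Among 21 other measured genes of TGF-beta activation and sensing, 2 rose, 2 fell and 17 did not pass (median 0.08). Itgav, the alpha v partner of Itgb8, rose 1.93-fold (0.95 ± 0.14, adjusted p = 0.0136), from 9.74, 9.93 and 9.83 in PBS to 10.65, 10.58 and 11.11 in HDM. Tgfb1, the TGF-beta that lymphocytes make, rose by 0.49 ± 0.10 (adjusted p = 0.0414). The receptor gene Tgfbr3 fell by 0.77 (SE 0.10, adjusted p = 0.00722) and Smad4, the shared signal transducer, by 0.51 (SE 0.09, adjusted p = 0.0204). With the replicate block 6 rose and 4 fell, and without both arrays numbered 3 these counts were 6 and 3. Itgav lost the call without PBS replicate 1 or 2 (adjusted p up to 0.0626), Tgfbr3 without PBS replicate 2 (0.0521), Smad4 without any 1 of the arrays numbered 1 or 2 (up to 0.0918) and Tgfb1 in all 6 settings but the one without HDM replicate 3 (up to 0.141). Without PBS replicate 2 limma called 0 of the 21, and 6 higher and 4 lower passed at an unadjusted p below 0.05, which 6.82% of all genes did as higher and 5.96% as lower in that setting.

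**Figure D2:**
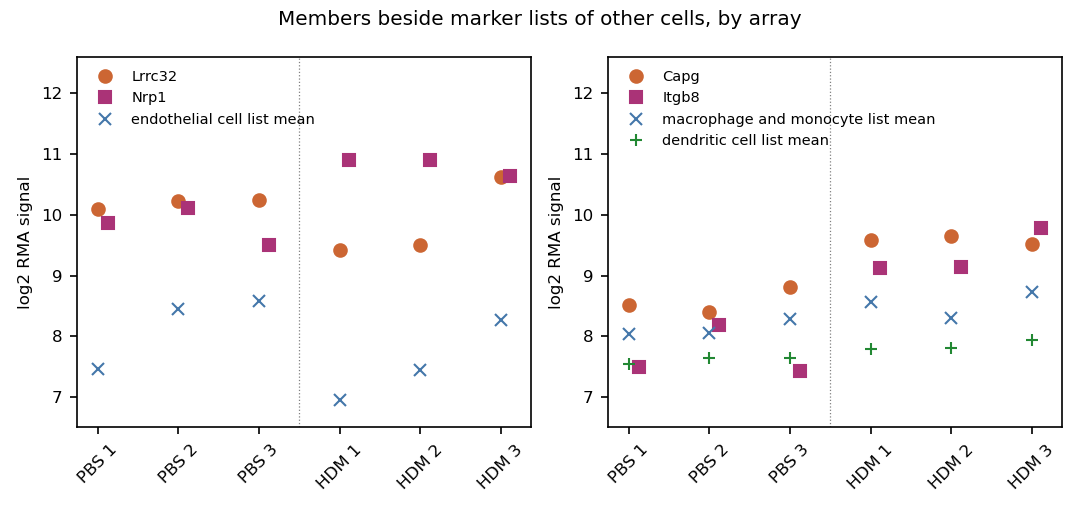
Log2 RMA signal by array of Lrrc32 and Nrp1 beside the mean of 8 endothelial markers (left), and of Capg and Itgb8 beside the means of 14 macrophage and monocyte and 9 dendritic cell markers (right). The endothelial mean of HDM replicate 3 is 8.27 where HDM replicates 1 and 2 are at 6.95 and 7.45, and the right panel shows Capg between 9.52 and 9.65 in all HDM arrays.

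Capg encodes an actin capping protein that is enriched in regulatory T cells and abundant in macrophages. Signals were 8.52, 8.40 and 8.82 in PBS and 9.58, 9.65 and 9.52 in HDM. The HDM arrays agreed within an SD of 0.0625 and stood clear of the PBS arrays. Capg rose 2.00-fold (1.00 ± 0.12, adjusted p = 0.00628), and the call held with any 1 array left out (differences of 0.91 to 1.12, adjusted p of up to 0.044). Of 14 macrophage and monocyte markers, 2 rose (3 with the block) and 12 did not pass (median 0.26). The mean log2 signal of the 14 ranged from 8.04 to 8.29 in PBS and from 8.31 to 8.73 in HDM. This mean includes the 2 that rose, and only these 2 had all HDM values above all PBS values, as 10.8% of all genes did. The 2 were Chil3, a secreted protein of lung macrophages (2.11 ± 0.38, adjusted p = 0.0248), and Ccr2, a chemokine receptor that effector T cells share with monocytes (1.85 ± 0.09, adjusted p = 0.000178). Of 9 dendritic cell markers 2 rose (median 0.09), Itgax by 1.06 ± 0.22 (adjusted p = 0.038) and Ccr9, which T cells also carry, by 0.63 ± 0.11 (adjusted p = 0.0221). The list means were 7.55 to 7.65 in PBS and 7.79 to 7.94 in HDM. They include Itgax and Ccr9, the only 2 of the 9 whose groups did not overlap. Chil3 and Ccr9 missed the threshold without any 1 of the 4 arrays numbered 1 or 2 (adjusted p up to 0.11 and 0.103), and Itgax without any PBS array or HDM replicate 2 (up to 0.132). The part of these cells in the Capg, Itgb8 and Cd80 values was not tested.

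Gpr83 encodes a G protein-coupled receptor enriched in mouse regulatory T cells. It gave 7.96, 8.04 and 7.37 in PBS and 7.63, 7.48 and 7.37 in HDM. HDM replicates 1 and 2 lay below PBS replicates 1 and 2, while both arrays numbered 3 were at 7.37. The difference of −0.29 ± 0.18 did not pass (adjusted p = 0.468), nor did it with any 1 array left out (adjusted p of 0.0705 to 0.807). Without both arrays numbered 3 it was −0.44 and passed (adjusted p = 0.0381). In that setting 1326 genes were called lower, beside 345 with all arrays.

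**Figure D3:**
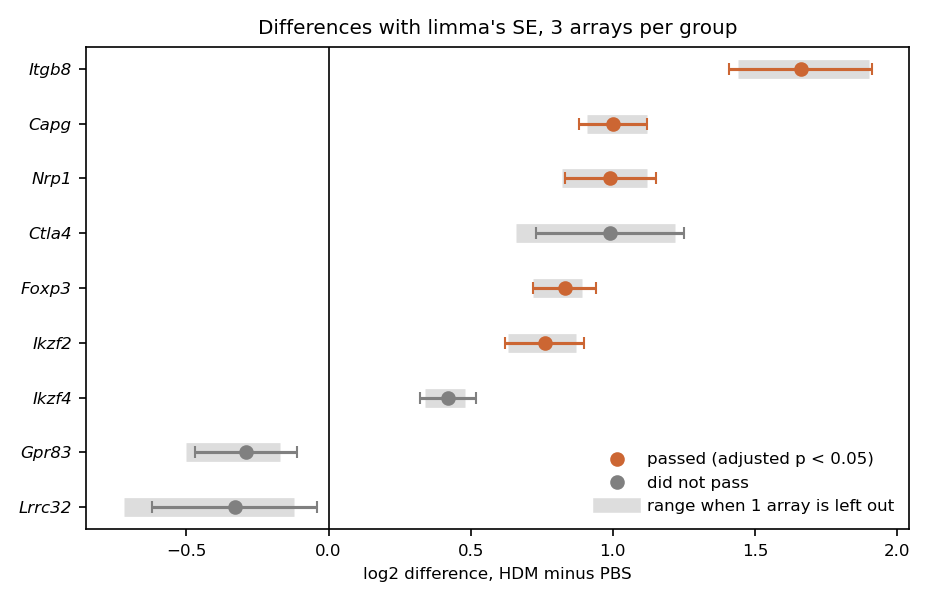
Log2 difference between HDM and PBS for the 9 genes, ordered by size; points are the estimates, bars limma's SE, and the grey bands the lowest to highest value when 1 of the 6 arrays was left out. The 5 called genes lie between 0.76 and 1.66, and the bands of Lrrc32 (−0.72 to −0.12) and Ctla4 (0.66 to 1.22) are the widest of the 9.

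The change of each other member was set against that of Foxp3. For each array the Foxp3 signal was subtracted from that of another member, and the change of this quantity between the groups was tested by a two-sided exact permutation test over the 6 arrays, which cannot go below p = 0.1 with 3 against 3. The groups did not overlap in this quantity for Lrrc32 (−1.16 ± 0.35 SE), Gpr83 (−1.12 ± 0.18) and Itgb8 (0.83 ± 0.26). Each of these 3 had the smallest exact p of 0.1 (0.267 after Benjamini-Hochberg adjustment over the 8 genes). No gene could pass the threshold with 3 against 3, so the test decides nothing about the 8. Foxp3 itself rose by 0.83, so a gene with no change would be lower by that amount in this quantity. Lrrc32 and Gpr83 overlapped between the groups in their own signal, so their separation here may largely restate the rise of Foxp3. How many of all genes separate in this way was not counted. Groups overlapped for the remaining 5, with values of −0.41 ± 0.21 for Ikzf4, −0.06 ± 0.09 for Ikzf2, 0.16 ± 0.19 for Nrp1, 0.17 ± 0.24 for Ctla4 and 0.18 ± 0.25 for Capg (exact p from 0.2 to 0.8). The Ikzf2 quantity stayed between −0.97 and −0.68 in all 6 arrays.

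Of 27 further surface and suppressive genes of regulatory T cells that were measured, 11 rose, 0 fell and 16 did not pass (median 0.73), and 19 rose with the replicate block. The block also raised the share of all genes called higher, from 2.39% to 5.95%. Il10, the suppressive cytokine, had the greatest difference (3.27 ± 0.15, adjusted p = 0.000178), with 7.12, 7.36 and 7.17 in PBS and 10.18, 10.53 and 10.75 in HDM. Fgl2, which regulatory T cells secrete as a suppressor, was 7.59-fold higher (adjusted p = 0.00047), Itgae, the CD103 integrin chain, 5.67-fold (adjusted p = 0.00381) and Pdcd1, the receptor PD-1, 4.23-fold (adjusted p = 0.00705). These 4 calls held with any 1 array left out. Conventional effector T cells also make Il10, Itgae and Pdcd1.

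Genes of effector and tissue regulatory T cells gave 11 higher, 0 lower and 6 not passing of 17 measured (median 1.15), and 15 higher and 1 lower with the block. Among all genes 2.39% were called higher, and 5.95% higher and 6.01% lower with the block. Beside Il10, Fgl2 and Itgae, which this list shares with the one above, Pparg, a nuclear receptor of tissue regulatory T cells and of Th2 cells, rose 5.77-fold (2.53 ± 0.28, adjusted p = 0.00435). Between 9 and 11 of the 17 were higher with 1 array left out, and 13 were higher and 1 lower without both arrays numbered 3. The sort took regulatory and conventional CD4 T cells together, so these counts do not show which of them carried the differences. The part of conventional T cells in this list was not tested.

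Genes of resting, recirculating regulatory T cells, which naive T cells express as well, went the other way: 8 of 10 measured fell, 0 rose and 2 did not pass (median −0.75), and all 10 fell with the block. The shares of all genes called lower were 1.56%, and 6.01% with the block. Bach2, a repressor of effector differentiation, fell by 0.97 (SE 0.11, adjusted p = 0.00474), Klf2, which sustains recirculation, by 0.89 (SE 0.16, adjusted p = 0.0227), Satb1, a chromatin organiser, by 0.89 (SE 0.12, adjusted p = 0.0102) and Lef1, a factor of less differentiated T cells, by 0.85 (SE 0.08, adjusted p = 0.00249). All 10 had their HDM values below their PBS values, as 11.8% of all genes did. The count of 8 fell to 2 without PBS replicate 1, PBS replicate 2 or HDM replicate 1 and to 3 without HDM replicate 2. Over all genes, the number called lower went from 345 to 65, 41, 70 and 55 in these 4 settings. At an unadjusted p below 0.05 in limma, all 10 were lower with any 1 array left out (medians of −0.86 to −0.67). Without PBS replicate 2, 5.96% of all genes were lower by that rule. Klf2 lost the call in these 4 settings (adjusted p of up to 0.117) and Satb1 in the first 3 of them (up to 0.0546).

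Of 28 measured genes known to control Foxp3 expression, 2 rose, 5 fell and 21 did not pass (median −0.11). Il2ra, the alpha chain of the interleukin 2 receptor whose signal sustains Foxp3, rose 2.24-fold (1.16 ± 0.10, adjusted p = 0.00245), from 10.33, 10.42 and 10.25 in PBS to 11.31, 11.51 and 11.66 in HDM. Il2, the cytokine itself, differed by 0.32 ± 0.18 (adjusted p = 0.413). Il2rb, Stat5a and Stat5b of this list lay outside the rule for named genes. They differed by 0.42, −0.65 and −0.55 and did not pass (adjusted p = 0.167, 0.126 and 0.23). With the block Il2rb was called higher and Stat5a and Stat5b lower. Bach2 and Satb1 were among those that fell, as was Usp22, a deubiquitinase that supports Foxp3 transcription (by 0.66, SE 0.14, adjusted p = 0.0481). Of the 5 that fell, Bach2, Satb1 and Foxo1 were also counted in the resting list and Smad4 in the TGF-beta list. Il2ra was also counted in the suppressive list. Both the replicate block and the fit without both arrays numbered 3 gave 5 higher and 10 lower. With 1 array left out the number that rose was 1, other than 4 without HDM replicate 3, and the number that fell ran from 1 to 7. Usp22 passed in 1 of the 6 settings, the one without HDM replicate 3 (adjusted p up to 0.174 elsewhere), while the Il2ra call held with any 1 array left out (up to 0.0188).

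**Figure D4:**
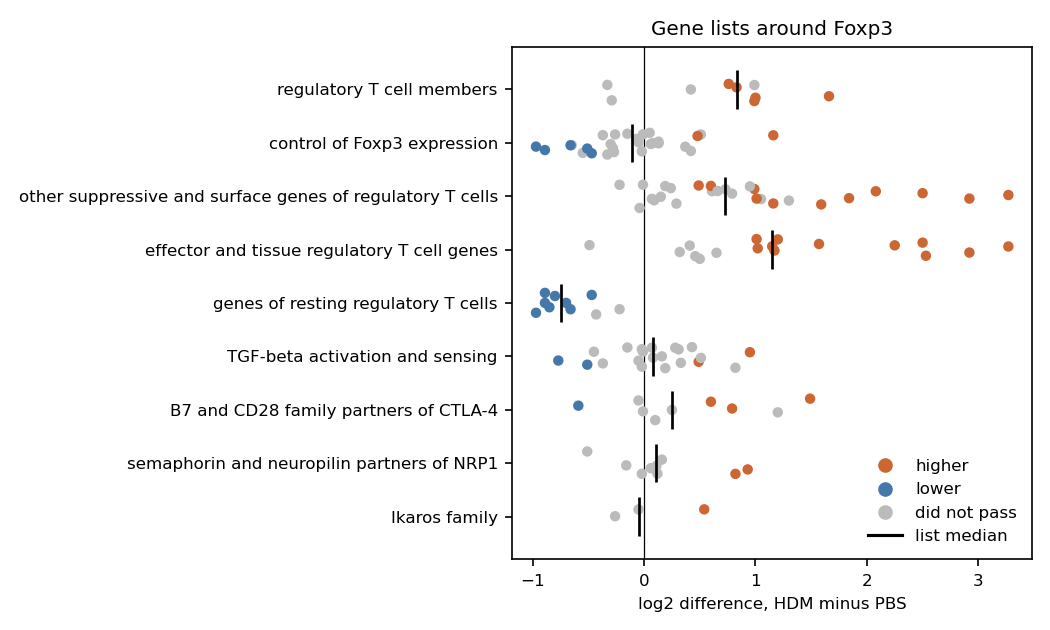
Log2 difference between HDM and PBS of the measured genes of each list, with called genes in orange (higher) or blue (lower), the others in grey and the list median as a black line; vertical scatter within a row has no meaning. The medians are 0.83 for the 9 members, 0.73 and 1.15 for the suppressive and the effector lists and −0.75 for the resting list.

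The 8 genes whose signal followed Foxp3 most closely over the 6 arrays were Nr1d1, Il12rb1, Ebi3, Tpbgl, Epha3, Cmtm7, St6galnac6 and Lrrfip2, with Pearson correlations of 0.987 to 0.993 among 4193 genes at or above the median signal that varied by at least 0.5. With 6 arrays in 2 groups that do not overlap, such a correlation mostly reflects a shared group difference. All 8 were called higher. Ebi3, a subunit shared by cytokines of the interleukin 12 family, gave 7.43, 7.38 and 7.18 in PBS and 8.17, 8.40 and 8.46 in HDM (1.01 ± 0.12, adjusted p = 0.00498). Il12rb1, a subunit of the interleukin 12 receptor, rose by 1.19 ± 0.12 (adjusted p = 0.00361) and Nr1d1, the clock repressor REV-ERB alpha, by 0.97 ± 0.14 (adjusted p = 0.012). Ebi3 and Il12rb1 held with any 1 array left out, and the other 6 lost the call in at least 2 of the 6 settings. The most negative correlations with Foxp3 were those of Gtf2i, Polr3b and Zfp146 (−0.99, −0.985 and −0.98). Gtf2i and Polr3b fell and Zfp146 did not pass (adjusted p = 0.102). Gtf2i lost the call in 4 of the 6 settings (without any 1 of the arrays numbered 1 or 2, adjusted p up to 0.0734) and Polr3b in 5 (all but the one without HDM replicate 3, up to 0.118). Within the list of 9, the correlation with Foxp3 was 0.98 for Ikzf2, 0.96 for Itgb8, 0.93 for Ctla4 and Nrp1, 0.86 for Capg, 0.78 for Ikzf4, −0.24 for Lrrc32 and −0.37 for Gpr83.

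Markers of further cells that the gate could hold were read in the same arrays. Of 9 T cell identity genes 1 rose (3 with the block), Zap70 (0.48 ± 0.10, adjusted p = 0.045), and the list mean lay between 11.72 and 11.75 in PBS and between 11.85 and 11.96 in HDM. Zap70 passed in 1 of the 6 settings, the one without HDM replicate 3 (adjusted p up to 0.203 elsewhere). Of 6 B and plasma cell markers limma called 0, while 1 passed at an unadjusted p below 0.05 and 1 with the block, Jchain, the joining chain of antibodies (adjusted p = 0.0789, and 0.00235 with the block). Leaving out HDM replicate 3 also made Jchain a call, as higher (adjusted p = 0.0447), and so did leaving out both arrays numbered 3 (0.00833). The list mean was 8.17 in HDM replicate 3 beside 6.92 and 7.48 in the other HDM arrays and 6.82 to 7.33 in PBS. In the list of CD8, natural killer and innate lymphoid cells, 2 of 9 genes fell (3 with the block) and 7 did not pass: the granule protease Gzma fell by 1.63 (SE 0.19, adjusted p = 0.00524) and the lectin receptor Klrd1 fell by 1.21 (SE 0.23, adjusted p = 0.0317). Klrd1 passed in 1 of the 6 settings, the one without HDM replicate 3 (up to 0.128 elsewhere). Of 11 epithelial and fibroblast markers 1 rose and 0 fell (1 and 3 with the block). The 1 was Cdh1 (0.82 ± 0.15, adjusted p = 0.0292), with list means of 7.46 to 8.23 in PBS and 7.48 to 8.08 in HDM, and Cdh1 passed in 1 of the 6 settings, the one without HDM replicate 3 (up to 0.113 elsewhere).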

How the data were processed

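The authors deposited log2 signals per probe set made with RMA, per the submitters' processing notes, which give no version; values lay between 2.95 and 14.1. RMA makes the array distributions nearly equal, so values are relative, a change in total RNA cannot be seen, and differences of dim genes are compressed. No detection call was used. Of 33960 probe sets, 23521 had exactly 1 gene symbol in the platform annotation, 1814 several and 8625 none here; the brightest per gene was used for the 1082 genes with more than 1.

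HDM was compared with PBS over 22180 genes in R 4.3.3 with limma 3.58.1 (lmFit, eBayes with an intensity trend, two-sided, Benjamini-Hochberg over all genes, threshold 0.05). Errors after ± in differences are limma's SE unless named. The members and the 17 gene lists were chosen with earlier results of these data known, and some listed genes were not analysed here. Beside the members, the text names up to 4 called genes per list with the greatest difference (2 where none passed) and fixed gate and cytokine genes. It also names the 8 genes with the highest and the 3 with the most negative correlation with Foxp3. Lists are described by counts and medians, with no test of a list. Counts of any list stand beside 2.39% of all genes called higher and 1.56% lower, or 5.95% and 6.01% with the block. Some genes are in more than 1 list, so the counts of different lists are not separate results. After subtracting the group mean, arrays of the same number correlated over the genes at 0.43, 0.17 and 0.53, each above the minimum of 0.1 for treating the numbers as pairs, though PBS replicate 1 and HDM replicate 2 correlated at 0.25, above the pair numbered 2; the labels do not say what the numbers mean. Any pair of arrays shared at most 5 identical values. Alternatives were a filter on dim genes, other normalizations, variance models, array weights, averaged probe sets, the replicate block and arrays left out; counting the lists with arrays left out was added after seeing the data. With 3 arrays per group, their number limits the precision.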

Additional observations from a re-analysis of the deposited data

How the results depend on the processing

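The calls of the 5 raised members and the directions of all 9 were the same with dim genes left out, with repeated quantile normalization, with arrays centred on their medians, without an intensity trend and with averaged probe sets. Array weights gave 914 genes higher and 923 lower and called Ikzf4 (0.45, adjusted p = 0.0265). The replicate block gave 1319 higher and 1334 lower and added Ikzf4 (0.42) and Ctla4 (0.99), and it changed no other member's call. Without both arrays numbered 3, 1250 genes were higher and 1326 lower, and 2 members were lower, Lrrc32 (−0.69) and Gpr83 (−0.44), while Ikzf4 (0.50) and Ctla4 (0.56) were higher. With 1 array left out, 177 to 845 genes were higher and 41 to 722 lower, and 2 to 5 members were higher and 0 to 1 lower. Differences then ranged from 0.63 to 0.87 for Ikzf2, 0.82 to 1.12 for Nrp1, 1.44 to 1.90 for Itgb8, 0.66 to 1.22 for Ctla4 and −0.72 to −0.12 for Lrrc32. Relative to Foxp3, the change of Ikzf2 ranged from −0.12 to 0.02 and that of Ctla4 from −0.06 to 0.35 (−0.09 without both arrays numbered 3), so their sign was not settled. The settings with fewer arrays have fewer samples; for the others the cause was not tested.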
